A study of Drosophila melanogaster with 6 samples.

Results

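The UDP-glycosyltransferase (Ugt) genes of the fruit fly were followed on 6 Affymetrix DrosGenome1 arrays of head RNA. Members were chosen by name alone: each probe set annotated to a single gene whose symbol starts with Ugt and a digit, whatever its signal. This gave 35 probe sets of 13966 on the array (array controls left out), for 33 genes. The current gene table lists 35 Ugt genes, and the remaining ones, Ugt50B3 and Ugt35D1, were not analysed here. The WT group held 3 arrays of wild type heads. The labels of WT 1 and WT 3 name the strain CS, and that of WT 2 names none. The Tim-MJD group held 3 arrays of heads with the genotype Tim-gal4; UAS-MJD78Q, in which the promoter of the clock gene timeless drives the Machado-Joseph disease protein (MJD). Its label gives a polyglutamine length of 78 for replicates 1 and 2, and none for replicate 3. The timeless gene is active in clock neurons and also in photoreceptors and glia, so the driver is not limited to 1 cell type. Flies of either group had an age of 2 to 4 days and had spent 3 days in light-dark cycles before sampling at ZT16 (Zeitgeber time, in hours from lights on). Sex, flies per sample and whether replicates came from separate collections are not stated, so p-values measure the spread between these samples, which may be technical. Neither the driver alone nor the transgene alone is among the samples, so driver, transgene and strain background cannot be told apart.

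UDP-glycosyltransferases are enzymes of the endoplasmic reticulum membrane that attach a sugar from a UDP-sugar donor to small lipophilic molecules, which makes them more soluble and easier to excrete. Insects use mainly UDP-glucose as the donor, where vertebrates use mainly UDP-glucuronic acid. In flies the family is known from the breakdown of plant toxins and insecticides, from the handling of hormones and pigments, and from the antenna, where such enzymes are thought to help clear odorants. The family number in a symbol (Ugt35, Ugt36 and so on) groups proteins by similarity, and many members lie side by side in the genome. Near relatives can bind the same probes, and the probe sequences were not used here.

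Levels are given as log2(intensity + 16) after quantile normalization, and changes as Tim-MJD minus WT on that scale. The scale of the deposited intensities is not stated. Were log2 summaries turned back with base e, bright probe sets would have smaller changes than printed, in the same direction. Each array's brightest of 23 negative controls, at 5.59 to 5.69, served as the control level. Between 40.2% and 44.4% of all probe sets lay above it. The day of scanning differed between the groups and was shared within each, so it cannot be told apart from genotype. The middle 18S ribosomal RNA control read 12.7 on WT 1 and 12.008 on WT 2, and 16.7 to 17.4 on the other arrays. The 3' control of eIF-4a exceeded its 5' control by 9.39 log2 units on WT 2 and by 2.57 to 3.71 on the others.

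Of the 35 Ugt probe sets, 11 lay above the control level on all 6 arrays (31.4%, against 36.3% of all probe sets). A further 4 did so on some arrays and 20 on none (57.1%, against 49.1%). For most of the family, then, these arrays measured no signal above control in the head, which limits what can be seen but does not show absence of the transcript. The mean over all 35 ranged from 5.67 to 5.74 on WT arrays and from 5.71 to 5.81 on Tim-MJD arrays, so the groups overlapped in the family mean.

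**Figure D1:**
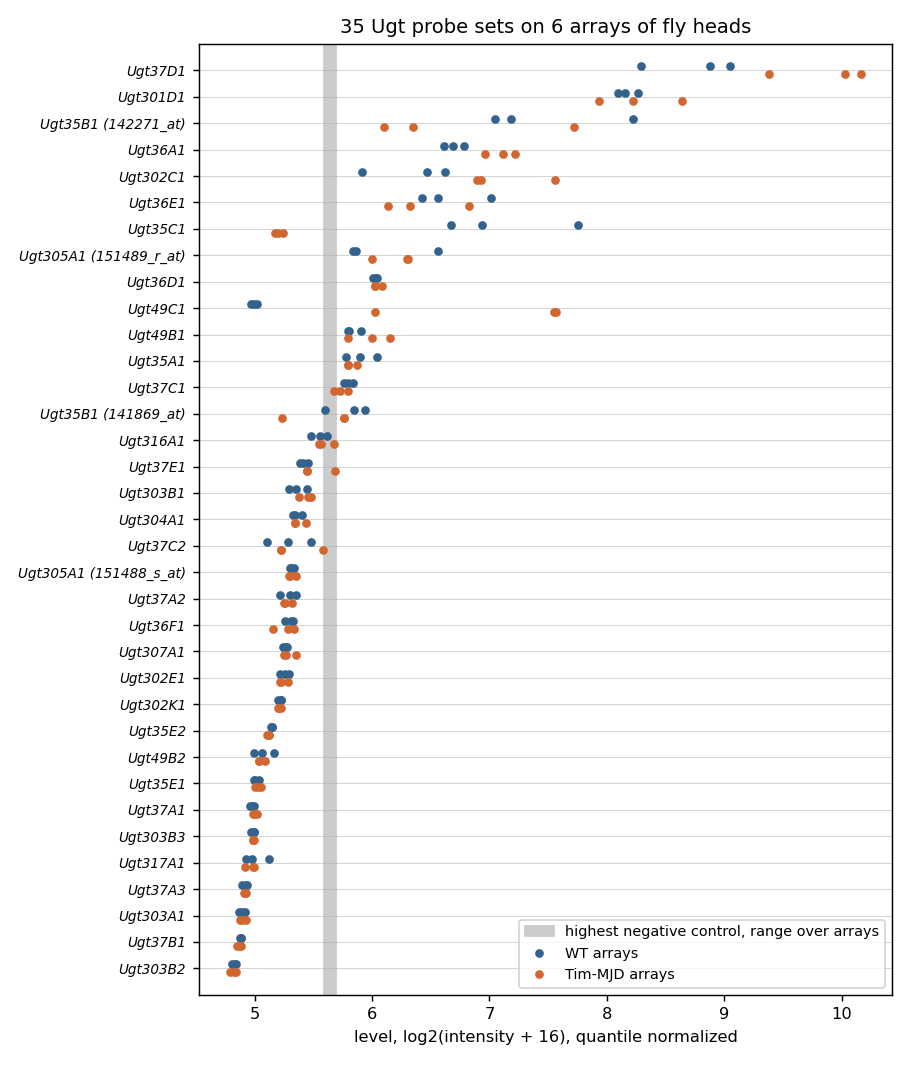
Level of each of the 35 Ugt probe sets (rows) on each array, as log2(intensity + 16); blue points are the 3 WT arrays, orange points the 3 Tim-MJD arrays, and the grey band is the range of the highest negative control (5.59 to 5.69). Rows are ordered by the mean over arrays, which reflects probe brightness as well as transcript amount; 20 rows lie at or below the control level on every array.

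The comparison of Tim-MJD with WT heads asks which transcripts differed between them. Ugt35C1 was lower in Tim-MJD heads and was the 1 member that passed the test. Ugt49C1, Ugt37D1, Ugt302C1 and Ugt36A1 read higher on every Tim-MJD array than on any WT array but did not pass. The dimmest 40% of probe sets by mean over arrays were left out, which left 20 Ugt probe sets of 18 genes in the test. With limma and Benjamini-Hochberg adjustment over 8379 probe sets at 0.05, 0 of the 20 were called higher and 1 was called lower. Over all tested probe sets 1.54% were called higher, 0.943% lower and 2.48% in either direction. At an unadjusted p under 0.05 there were 4 higher and 1 lower among the 20, where 7.70% and 7.95% of all probe sets were. The arrays of the groups did not overlap for 5 of the 20, against a background of 21.9%, with 4 higher and 1 lower where 839 and 998 of the 8379 were. The median change of the tested members was 0.05, beside -0.0026 over all tested probe sets. The median size of change was 0.11 and 0.12. The adjusted calls and medians lie near the background. In either direction 5 of 20 were without overlap, near the background of 21.9%. Also 5 of 20 had an unadjusted p under 0.05, against 15.6% of all tested probe sets. The shares higher, 4 of 20 each, lie above the background but rest on the same 4 genes, Ugt49C1 among them. Whether this is an excess was not tested. Ugt35C1, Ugt49C1 and Ugt37C2 passed the filter only through the group in which they read higher.

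**Figure D2:**
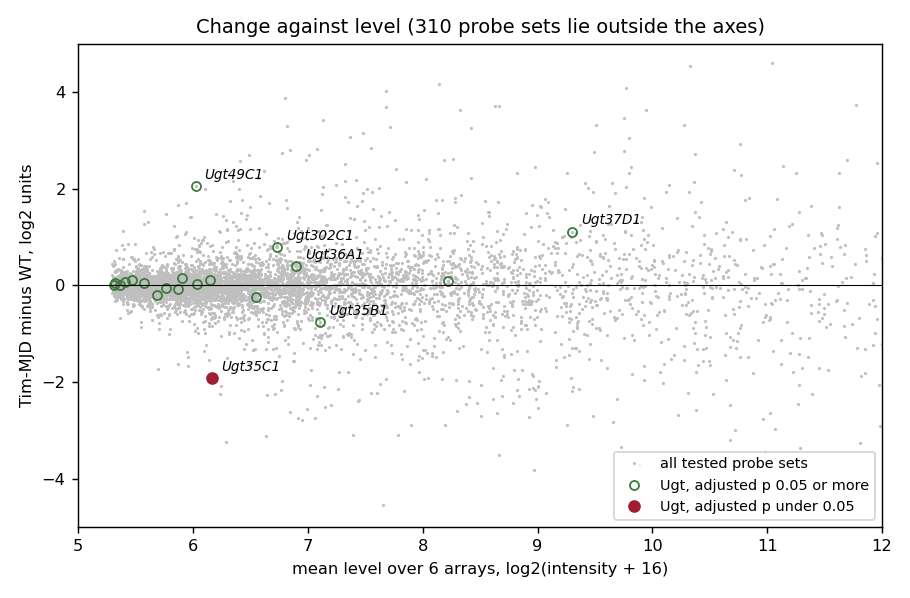
Change between groups (Tim-MJD minus WT, log2 units) against the mean level over the 6 arrays, for all tested probe sets (grey) and the 20 tested Ugt probe sets; the filled red point is past an adjusted p of 0.05 and open green points are not. Ugt35C1 at -1.92 is the red point, and most Ugt probe sets lie close to 0; 310 of all probe sets fall outside the axes.

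Ugt35C1, earlier named Ugt86Dd, is a gene of chromosome arm 3R whose natural variants have been linked to nicotine resistance of fly larvae. It read 7.75, 6.67 and 6.94 on WT 1 to 3, and 5.24, 5.17 and 5.20 on Tim-MJD 1 to 3. In deposited intensities these are 224.1, 89.53 and 103.43 against 21.15, 19.29 and 22.96. All WT arrays lay above the control level and all Tim-MJD arrays below it. The means were 7.12 ± 0.56 and 5.20 ± 0.03 (SD, n = 3 each), a fitted change of -1.92 ± 0.28 (SE; limma, adjusted p = 0.0391). Because the transcript was not above control in Tim-MJD heads, the size of the fall is uncertain. The WT mean lay 1.48 log2 units above the mean control level of the Tim-MJD arrays, without allowance for the spread between arrays. The 95% interval of the fitted change was -2.63 to -1.20. Heads are mixed tissue, and fewer cells of a type or less RNA per cell cannot be told apart. Within fluidics module 1, which washed WT 2 and Tim-MJD 1, the difference was -1.43, and within module 2, which washed WT 3 and Tim-MJD 2, it was -1.77. The call stands close to the threshold. It was lost without WT 3 (adjusted p = 0.0843), Tim-MJD 1 (0.0912), Tim-MJD 2 (0.107) or Tim-MJD 3 (0.118), and under 8 of 13 other settings, while the change stayed between -2.50 and -1.16 in all 19 alternatives.

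Levels of some tissue markers differed between the groups as well. For the counts below, limma called 0.943% of all tested probe sets lower and 1.54% higher. An unadjusted p under 0.05 was found for 15.6% of them. Photoreceptor markers, which define the compound eye, were bright on all arrays, with a mean level of 12.96 to 13.56 on WT and 13.08 to 13.13 on Tim-MJD arrays. Olfactory organ markers had a mean of 10.79 to 11.003 on WT and 9.02 to 9.78 on Tim-MJD arrays. All 11 tested were negative, though Orco (-0.03; limma, adjusted p = 0.964) and Obp84a (-0.16; 0.788) differed little and their groups overlapped. Of the 11, 8 had an unadjusted p under 0.05 and 1 was called lower, Obp19a, an odorant binding protein. Its change was -4.55, with 1 of 3 Tim-MJD arrays above the control level. The call held with each array left out. It was lost with the module block (limma, adjusted p = 0.242), under which no probe set was called. Fat body markers had a mean of 13.8 to 14.6 on WT, and of 13.3, 10.1 and 13.0 on Tim-MJD 1 to 3. Among them the yolk protein genes Yp1, Yp2 and Yp3 read 14.72, 10.02 and 13.15 on Tim-MJD 2, and at least 18.36 on the other arrays. Sex is not stated, and its part in these values was not tested. Of the 10 tested, 2 were positive and 8 negative. Of 10 fat body markers 3 had an unadjusted p under 0.05 and 1 was called lower, Obp99b, also an odorant binding protein (change -5.70; limma, adjusted p = 0.0478). That call was lost without WT 1 (0.143), WT 2 (0.109), WT 3 (0.113) or Tim-MJD 3 (0.116), and in 11 of 19 alternatives in all. Fbp1 and Fbp2 were at or below control on all arrays. Gut markers had a mean of 5.94 to 7.46 on WT and 5.80 to 6.13 on Tim-MJD arrays, with 0 of 4 called in limma, 0 unadjusted p-values under 0.05, and Jon65Ai and Jon99Ci at or below control on all arrays. In limma, photoreceptor, neuron, glia, hemocyte and muscle markers had 0 calls among 6, 4, 6, 7 and 4 tested genes, and 1, 1, 2, 1 and 0 at an unadjusted p under 0.05. The part of any of these tissues in the Ugt values was not tested.

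**Figure D3:**
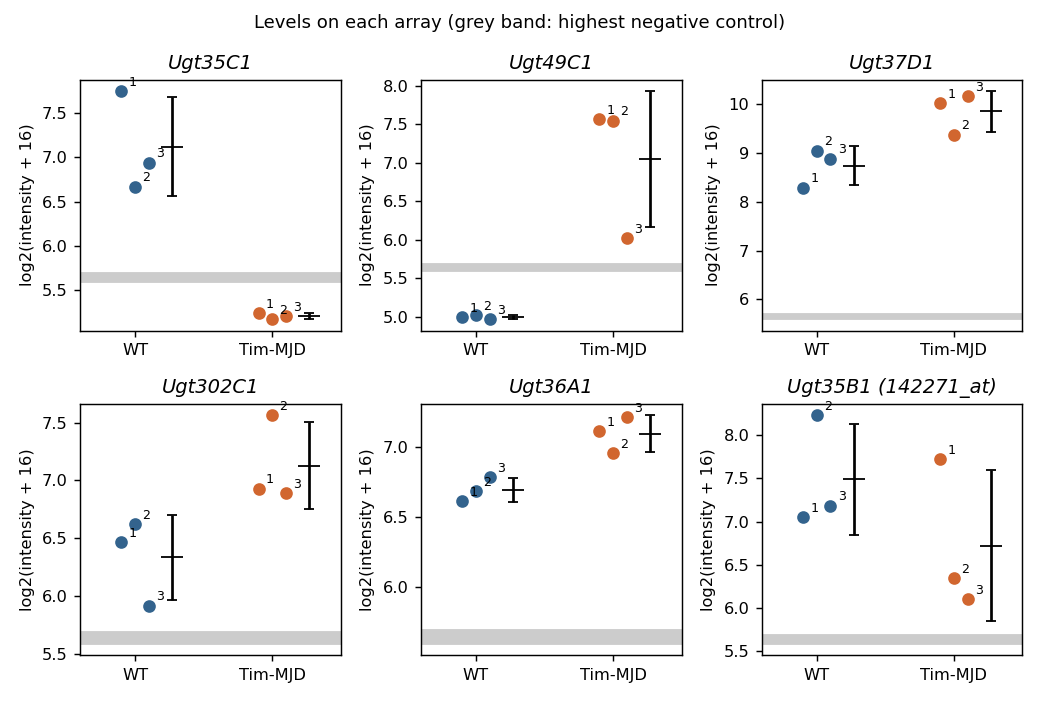
Level of 6 Ugt probe sets on each array, as log2(intensity + 16), with replicate numbers beside the points and the mean ± SD of 3 arrays at the right of each group; the grey band is the control level, and the vertical axes differ between panels. Ugt35C1 lies above the band on WT arrays only, Ugt49C1 on Tim-MJD arrays only, and the Ugt35B1 groups overlap.

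Ugt49C1, on arm 2R, showed the opposite pattern. WT 1 to 3 read 4.99, 5.02 and 4.97, and Tim-MJD 1 to 3 read 7.57, 7.55 and 6.03. In deposited intensities the WT values were 14.73, 16.13 and 16.37 and the Tim-MJD values 170.14, 173.03 and 52.05. The transcript was thus above the control level on 3 of 3 Tim-MJD arrays and 0 of 3 WT arrays, by a wide margin on Tim-MJD 1 and 2 and a small one on Tim-MJD 3. Means were 4.996 ± 0.024 and 7.05 ± 0.88 (SD, n = 3 each). The fitted change was 2.05 ± 0.44 (SE) and did not pass (limma, adjusted p = 0.0887). The Tim-MJD mean lay 1.44 log2 units above the mean control level of the WT arrays, without allowance for the spread between arrays. The 95% interval of the fitted change was 0.94 to 3.16. Without Tim-MJD 3 the change was 2.62 and was called (limma, adjusted p = 0.00115). It was also called when 60% of probe sets were left out (adjusted p = 0.0480), and over all 19 alternatives the adjusted p ranged from 0.00115 to 0.327. Within modules 1 and 2, which do not hold Tim-MJD 3, the differences were 2.54 and 2.58. The label of Tim-MJD 3 is the one that gives no polyglutamine length, and this array had the highest control level (5.69). The part of either in its Ugt49C1 value was not tested.

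Ugt37D1, earlier named Ugt36Bc, read 8.29, 9.05 and 8.88 on WT 1 to 3 and 10.02, 9.38 and 10.16 on Tim-MJD 1 to 3. The groups were separated by the gap between WT 2 and Tim-MJD 2. The change was 1.12 ± 0.29 (SE; limma, adjusted p = 0.136), with a 95% interval of 0.39 to 1.84. It was 0.98 and 0.50 within modules 1 and 2. None of 19 alternatives called it.

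Ugt302C1, earlier named Ugt86Da, read 6.47, 6.62 and 5.92 on WT 1 to 3, and 6.93, 7.56 and 6.89 on Tim-MJD 1 to 3. Its change was 0.79 ± 0.27 (SE; limma, adjusted p = 0.232), with values of 0.31 and 1.64 within modules 1 and 2. Ugt36A1, also named Dot, whose enhancer is used to mark pericardial and blood cells, read 6.61, 6.69 and 6.79 on WT 1 to 3 and 7.12, 6.96 and 7.22 on Tim-MJD 1 to 3. That is a change of 0.40 ± 0.09 (SE; limma, adjusted p = 0.0988). Neither gene was called under any of 19 alternatives, and neither changed sign. Hemocyte markers, which stand for blood cells, had a mean level of 6.27 to 6.47 on WT and 6.28 to 6.61 on Tim-MJD arrays. Of 7 tested, 3 were positive and 4 negative, from -0.27 (NimC1) to 0.78 (Hml), and 0 were called.

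Ugt301D1 read 8.10, 8.15 and 8.27 on WT and 8.64, 7.93 and 8.23 on Tim-MJD arrays, so the groups overlapped. Its change was 0.09 with a 95% interval of -0.38 to 0.57, which leaves room for a moderate change in either direction. It was negative with values as deposited, with median centring and without Tim-MJD 1.

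Ugt35B1, earlier named Ugt35b, is known as an enzyme of the antenna. It has a pair of probe sets. The brighter read 7.05, 8.23 and 7.19 on WT 1 to 3 and 7.72, 6.35 and 6.10 on Tim-MJD 1 to 3. Tim-MJD 2 and 3 lay below every WT array and Tim-MJD 1 above 2 of them. The change was -0.76 ± 0.54 (SE; limma, adjusted p = 0.605). It was -0.38 without WT 2, -1.26 without Tim-MJD 1, -0.47 without Tim-MJD 3, -0.23 with the 18S covariate and -0.33 with the 3' to 5' covariate. The dimmer read 5.60, 5.84 and 5.94 on WT and 5.76, 5.24 and 5.76 on Tim-MJD arrays, a difference of -0.21 (limma, adjusted p = 0.679). Both were negative and neither separated the groups. Ugt35A1, its neighbour in the genome, differed by -0.08 (95% interval -0.29 to 0.13), and the sign turned with the 3' to 5' covariate.

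The probe sets of Ugt305A1 differed in signal. The brighter read 5.84, 5.87 and 6.56 on WT and 6.30, 6.001 and 6.31 on Tim-MJD arrays, a difference of 0.11 (limma, adjusted p = 0.891) that turned negative with fluidics module, 18S or 3' to 5' terms and without WT 1. The dimmer was at or below control on all arrays. Among the other members above control on all arrays, Ugt36E1 differed by -0.24, Ugt49B1 by 0.15, Ugt37C1 by -0.06 and Ugt36D1 by 0.02, the last turning sign with median centring. Adjusted p-values of these 4 in limma ranged from 0.615 to 0.929. For Ugt36D1 all 6 arrays lay between 6.005 and 6.08. Ugt316A1 lay at the control level, with a change of 0.04 that turned sign with the 3' to 5' covariate. The 20 probe sets at or below control on every array read between 4.79 and 5.68, and their group means differed by -0.05 to 0.11. Differences there are not detectable on these arrays. They include the whole Ugt303B group (Ugt303B1, Ugt303B2 and Ugt303B3), Ugt37A1, Ugt37A2, Ugt37A3 and Ugt37B1, and Ugt304A1, Ugt307A1 and Ugt317A1.

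By family number, Ugt35 had 4 of 6 probe sets above control on some array, Ugt36 had 3 of 4, Ugt37 had 2 of 8, Ugt49 had 2 of 3, Ugt302 had 1 of 3 and Ugt303 had 0 of 4. Changes within the Ugt35 family reached from -1.92 to 0.02, and within the Ugt49 family from -0.02 to 2.05.

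Position was compared next, using the RefSeq annotation (Release 6 plus ISO1 MT) for gene order alone. Of the 33 genes, 23 lay in 6 runs of Ugt genes with at most 3 other genes between neighbours. The longest run holds 10 genes on arm 3R, in the order Ugt35C1, Ugt302K1, Ugt302E1, Ugt302C1, Ugt35E1, Ugt35E2, Ugt35B1, Ugt35A1, Ugt304A1 and Ugt303A1. At one end Ugt35C1 was the called member. In the middle Ugt302C1 was higher on all Tim-MJD arrays without passing. The other genes of the run lay between -0.76 (the brighter Ugt35B1 probe set) and 0.02. Directly between Ugt302C1 and Ugt35E1 lies CG4757, named here after its value was seen. Its mean was 5.56 in WT and 12.95 in Tim-MJD heads, a change of 7.39 (limma, adjusted p = 0.00745), and the call held with each array left out in turn. Of the WT arrays 1 of 3 was above the control level, and 3 of 3 Tim-MJD arrays were, so the WT mean and the size of the change rest on values near or below control. The Ugt genes on either side had differences of 0.79 (Ugt302C1) and 0.02 (Ugt35E1, not above control). The call of CG4757 was lost with the replicate block (adjusted p = 0.0550), the fluidics module block (0.257) and the 18S covariate (0.102). No probe set was called with the module block.

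**Figure D4:**
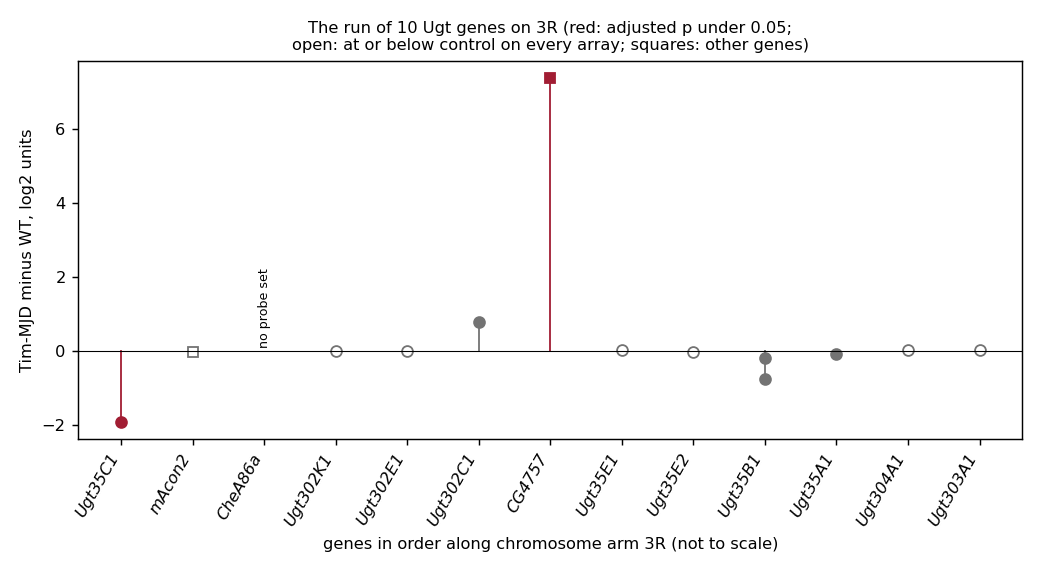
Change between groups (Tim-MJD minus WT, log2 units) for genes in their order along the run of 10 Ugt genes on chromosome arm 3R, not to scale; circles are Ugt probe sets, squares other genes, red symbols are past an adjusted p of 0.05, and open symbols lie at or below control on every array. Ugt35C1 at -1.92 and the interposed CG4757 at 7.39 are the red symbols.

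In the other runs no Ugt gene passed the test. On arm 2R, Ugt49C1 (2.05) lies beside Ugt49B1, which read 5.91, 5.80 and 5.79 on WT and 5.996, 5.79 and 6.15 on Tim-MJD arrays. On arm 2L, Ugt37D1 (1.12) follows Ugt37C2 and Ugt37E1, both at or below control on every array. Also on 2L, Ugt36F1 was not above control, while Ugt36D1 and Ugt36E1 were on all arrays and did not pass. In the run of 3 Ugt303B genes and the pair Ugt37A2 and Ugt37A3, both on 3R, no probe set rose above control.

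The supply of the sugar donor was then examined through a list of genes of UDP-sugar synthesis and transport. Of 12 tested genes 2 fell, 0 rose and 10 did not pass, and 4 had an unadjusted p under 0.05. Over all tested probe sets limma called 0.943% lower and 1.54% higher, and 15.6% had an unadjusted p under 0.05. UGP, the enzyme that makes UDP-glucose from glucose 1-phosphate and UTP, read 10.54, 9.99 and 10.22 on WT 1 to 3 and 8.62, 7.99 and 8.36 on Tim-MJD 1 to 3. The change was -1.93 ± 0.21 (SE; limma, adjusted p = 0.0161). Pgm1, the phosphoglucomutase that provides glucose 1-phosphate, read 10.33, 9.66 and 10.01 on WT and 8.67, 8.16 and 8.12 on Tim-MJD arrays, a change of -1.69 ± 0.23 (SE; limma, adjusted p = 0.0316). These are consecutive steps of UDP-glucose synthesis, and whether they changed together was not tested. For both every Tim-MJD array lay below every WT array, as for 11.9% of all tested probe sets. The same held for Galk (-1.46), Hex-C (-1.17) and Efr (-0.36) of this list, which did not pass. For sgl, which oxidises UDP-glucose to UDP-glucuronic acid, the groups overlapped and the difference was 0.37 (limma, adjusted p = 0.521). Over the list the median change was -0.34, beside -0.0026 for all tested probe sets, and 9 of 12 were negative.

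The UGP call was lost without WT 1 (adjusted p = 0.0586), WT 3 (0.0579) or Tim-MJD 3 (0.0720), and the Pgm1 call without WT 1 (0.0799), WT 3 (0.0843), Tim-MJD 2 (0.0927) or Tim-MJD 3 (0.0977). Both were also lost with the fluidics module as a block, under which no probe set was called. They were lost with the 18S covariate as well, in each case with the same sign. Pgm1 was lost with median centring (0.0690), without the filter (0.0873) and with the 3' to 5' covariate (0.0501) as well, which makes 9 of 19 alternatives for Pgm1 and 5 of 19 for UGP. The mean levels of fat body and olfactory organ markers, given above, were also lower on each Tim-MJD array than on any WT array. So was that of glia markers (7.22 to 7.41 on Tim-MJD, 7.47 to 7.78 on WT arrays). Neuron markers were higher (6.75 to 6.79 on Tim-MJD, 6.32 to 6.56 on WT arrays). For photoreceptor, hemocyte, gut and muscle markers the mean levels overlapped. The fat body mean includes the yolk protein genes that read low on Tim-MJD 2. The part of these markers in the UGP and Pgm1 values was not tested.

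**Figure D5:**
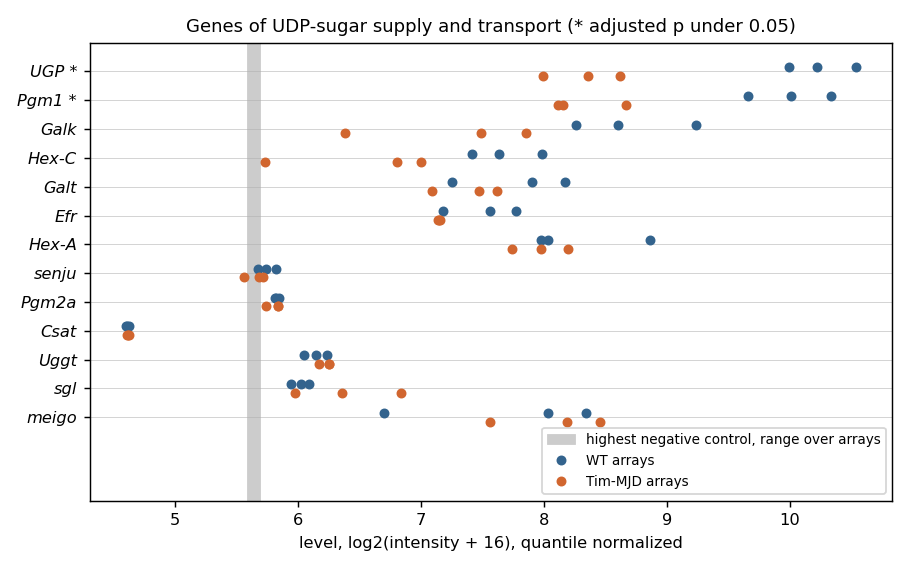
Level of 13 genes of UDP-sugar supply and transport on each array, as log2(intensity + 16); blue points are WT arrays, orange points Tim-MJD arrays, the grey band is the control level, and an asterisk marks an adjusted p under 0.05. UGP and Pgm1, at the top, have all Tim-MJD points below all WT points. So have Galk, Hex-C and Efr, which carry no asterisk, and sgl has not.

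Other steps around the family gave few calls. Over all tested probe sets limma called 2.48% in either direction, and 15.6% had an unadjusted p under 0.05. Of 9 tested efflux transporters, some of which export conjugates, limma called 0, with 4 unadjusted p-values under 0.05 and a median of 0.17. Among these 4, Mrp5 (0.32), rdog (0.98) and CG7806 (0.53) were higher and Mdr65 (-0.68) was lower. Of 7 tested regulators of the response to foreign compounds limma called 0, with 0 unadjusted p-values under 0.05 and a median of 0.10, and ss, tgo, EcR, gce and Hr38 were at or below control on all arrays. The 3 tested hydrolases of glucuronides and glucosides gave 0 calls in limma (1 at an unadjusted p under 0.05; median -0.0067). That 1 was CG9701, a predicted glycosidase named after its value was seen, which read 6.91, 7.005 and 6.72 on WT and 9.67, 10.38 and 8.40 on Tim-MJD arrays (adjusted p = 0.0722), while betaGlu and CG15117 were at or below control on all arrays. Of 7 tested sulfotransferase, methyltransferase and acetyltransferase genes, which serve other kinds of conjugation, AANAT1 fell and 6 did not pass (median -0.10). AANAT1, which acetylates dopamine and other arylalkylamines, read 10.39, 10.44 and 10.24 on WT and 8.88, 8.13 and 7.76 on Tim-MJD arrays. Its change was -2.10 ± 0.29 (SE; limma, adjusted p = 0.0337). It was called without Tim-MJD 1 but not without WT 1 (adjusted p = 0.106), WT 2 (0.104), WT 3 (0.0827), Tim-MJD 2 (0.0963) or Tim-MJD 3 (0.0698). It was also lost with median centring (0.0764), without the filter (0.0916) and with the replicate block (0.0784). The same held for the module block (0.276), the 18S covariate (0.224) and the 3' to 5' covariate (0.132). No probe set was called with the module block.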

How the data were processed

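RNA of WT and Tim-MJD fly heads had been hybridised to DrosGenome1 arrays, per the file headers. The authors deposited 1 linear intensity for each probe set, and how it was summarised is not stated. Labelling kit and scanner are named in the labels of WT 1 only. Of 14010 probe sets, 44 array controls were left out, 12443 had 1 annotated gene, 327 several and 1196 none listed. Log2 of the intensity plus 16 was quantile normalized, and control probe sets were placed on that scale by interpolation. Groups were compared with limma 3.58.1 in R 4.3.3 (lmFit, eBayes, two-sided, Benjamini-Hochberg adjustment, threshold 0.05). An exact permutation test of 3 against 3 arrays cannot go below p = 0.1 and was not used. Runs allow at most 3 other protein-coding genes between neighbours.

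Members described array by array are those past the threshold, those with an unadjusted p under 0.05 and no overlap, the 4 brightest, and genes with several probe sets. From gene and marker lists, members past the threshold are named. Other genes named, sgl, CG4757 and CG9701 among them, were chosen with their values known. The members and lists were chosen with earlier results of these data known. The procedure was tested on simulated data. Sequences were not used. Figures were drawn with matplotlib 3.10.9.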

Additional observations from a re-analysis of the deposited data

How the results depend on the processing

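The number of arrays, 3 per group, and signal near control level for most members limit these results. All 8379 tested probe sets gave 208 calls. Calls numbered 122 with median centring, 102 without the filter, 387 with 60% left out, 37 with the 18S covariate, 90 with the 3' to 5' covariate, 0 with the fluidics module as a block (limma; 980 at an unadjusted p under 0.05), and 88 to 200 with each array left out in turn. Only modules 1 and 2 held an array of each group, so WT 1 and Tim-MJD 3 did not enter the module comparison. A call lost under that block therefore says little about the gene. The 18S control was lower on every WT array than on any Tim-MJD array, so that covariate overlaps with genotype. With the replicate block 84 were called. The samples share only a replicate number: deviations of same-numbered arrays correlated by 0.29, 0.05 and 0.30 and 2 of 3 WT arrays correlated best with their own number. The Ugt probe sets called lower numbered 0 with a pseudocount of 64, median centring, cyclic loess, no filter, the 18S or 3' to 5' covariate, the replicate block or the fluidics module block, and 0 to 1 with each array left out. Ugt35C1 then had an adjusted p of 0.0505 (3' to 5' covariate) to 0.264 (module block), and 0.0867 with the replicate block; the cause was not tested. The Ugt probe sets called higher numbered 1 with 60% left out and 0 to 1 with each array left out; that one was Ugt49C1. The median change of the tested members, 0.05, ranged from -7.3e-05 without the filter to 0.09 with 60% left out, moving in each of the 19 alternatives by less than the spread between arrays (0.07, SD). With the natural log, for values read as powers of e, Ugt35C1 changed by -1.77 and Ugt49C1 by 1.97.

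Some small changes turned sign, and the cause was not tested. Ugt301D1 was -0.099 with values as deposited and -0.12 with median centring, and -0.091 to 0.26 with each array left out. The brighter Ugt305A1 probe set was -0.066 with the module block, -0.40 with the 18S covariate, -0.0062 with the 3' to 5' covariate and -0.012 to 0.35 with each array left out. The dimmer Ugt305A1 probe set was 0.020 as deposited, 0.0034 with cyclic loess, 0.0039 with the 18S covariate and -0.019 to 0.011 with each array left out. Ugt36D1 was -0.0076 with median centring. With the 3' to 5' covariate Ugt35A1 was 0.013 and Ugt316A1 -0.0070. Of 415 alternative values for 22 named probe sets, 345 kept direction and side of the threshold, 52 lost the call, 2 gained it and 16 turned sign.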
